A study of Mus musculus with 8 samples.

Results

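The nuclear-encoded subunits of the mitochondrial respiratory chain were examined as messenger RNA in the mouse basal cell carcinoma line ASZ001. Members were chosen by symbol alone, as the genes whose names start with Ndufa, Ndufb, Ndufc, Ndufs or Ndufv and a digit, with Uqcr, with Cox4, Cox5, Cox6, Cox7 or Cox8, or with Atp5, together with Sdha, Sdhb, Sdhc and Sdhd. This matched 83 of the 24907 symbols in the deposited table, 35 of complex I, 4 of complex II, 8 of complex III, 20 of complex IV and 16 of complex V. Of the 83, 75 had enough counts to be tested and 8 did not (Atp5g2, Cox4i2, Cox6a2, Cox6b2, Cox7a1, Cox7b2, Cox8b and Cox8c). Ndufa4, whose protein sits in complex IV despite its name, and its paralog Ndufa4l2 were counted with complex IV. The match also took in Cox7a2l, which encodes a factor that joins complexes III and IV into supercomplexes, and Atp5s, the gene of ATP synthase coupling factor B, which was not counted as a subunit. The 13 subunits encoded by mitochondrial DNA were not analysed here.

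The respiratory chain lies in the inner mitochondrial membrane. Complex I takes electrons from NADH and complex II takes them from succinate, and both hand them to ubiquinone. Complex III passes them on to cytochrome c and complex IV to oxygen, and complex V, the ATP synthase, uses the proton gradient so built to make ATP. Apart from complex II, each complex joins subunits encoded in the nucleus to a few encoded in the mitochondrion, and the nuclear genes are transcribed separately. Known activators of many of them are NRF1, the ETS factor GABPA, YY1 and the coactivator PGC-1alpha, encoded by Ppargc1a.

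The study compared 4 groups of adherent ASZ001 cells with 2 libraries each: Tgfbr1 knockdown cells with Dox and 4OHT (the RasV12 libraries), cells with a non-silencing (NS) shRNA with Dox and 4OHT (also RasV12), knockdown cells with DMSO and NS cells with DMSO. Tgfbr1 encodes the type I receptor of TGF-beta, RasV12 is an activated Ras, Dox and 4OHT commonly stand for doxycycline and 4-hydroxytamoxifen, and DMSO is their solvent. Per its title, the series is about the change from basal to squamous cell carcinoma. Because every library given Dox and 4OHT was also a RasV12 library, drug and Ras effects cannot be told apart, and both are meant by Ras response. The labels give no second shRNA against Tgfbr1 and no count of clones, so effects of the receptor's loss and of this shRNA or this cell population on other genes cannot be told apart. Nor do they tell if both libraries of a group stem from different cultures. The p-values therefore measure the spread between these samples only, and that spread may be technical.

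Library totals lay between 12724604.5 and 16233379 counts. Levels are given as CPM, that is, counts scaled to one common library size with TMM factors. Tgfbr1, the targeted gene, was at 8.86 and 9.42 CPM in the knockdown Dox-4OHT libraries and 104 and 91.6 CPM in the NS Dox-4OHT libraries. It was at 10.2 and 8.08 CPM in the knockdown DMSO libraries and 77.1 and 80.4 CPM in the NS DMSO libraries, so no library went against its shRNA label. Esr1, the oestrogen receptor gene, was at 3451 to 3987 CPM in the 4 Dox-4OHT libraries and at 14.03 to 22.7 CPM in the 4 DMSO libraries. Rn45s, a ribosomal RNA gene, held 0.387% to 2.76% of a library's counts. The 6 keratinocyte and basal cell carcinoma markers (Krt5, Krt14, Trp63, Epcam, Cdh1 and Itga6) were present in every library, while the fibroblast markers Col3a1 and Lum, the lymphocyte marker Cd3e and the pigment cell marker Dct were at 0 in all. The summed level of the markers of fibroblasts was 1.14 to 4.39 CPM over the 8 libraries, that of immune cells 4.51 to 15.5 CPM, that of endothelial cells 22.5 to 37.1 CPM and that of pigment cells 3.37 to 6.22 CPM.

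All levels compared between genes are CPM divided by the length in kilobases that the deposited table lists. In the NS DMSO libraries Atp5b, the catalytic beta subunit of ATP synthase, had the highest level at 869 ± 7.71 CPM per kb (mean ± SD, n = 2). Ndufa4 followed at 524 ± 15.8 and Cox4i1, a regulatory subunit of complex IV, at 500.5 ± 1.38 CPM per kb, a difference larger than the sum of their SDs. Complex I had the lowest median of the complexes, at 82.4 CPM per kb, with a range of 4.39 for Ndufb4 to 218 for Ndufb9. The ranges of the complexes overlapped, and differences between complexes were not tested. The medians were 95.8 for complex II, 127 for complex III, 156 for complex IV and 159 for complex V, all over the genes tested and in CPM per kb. At the low end stood Ndufa4l2, the paralog of Ndufa4, at 0.167 CPM per kb, and Atp5l and Atp5s at 2.12 and 2.32 CPM per kb. Atp5l has 9 near-identical copies elsewhere, so its level and place are uncertain. Matches to other annotated transcripts covered 40.2% of a 971-base Ndufb4 transcript, while the gene length listed for Ndufb4 is 449 bases. The level of Ndufb4 and its place as the lowest of complex I are therefore uncertain as well.

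**Figure D1:**
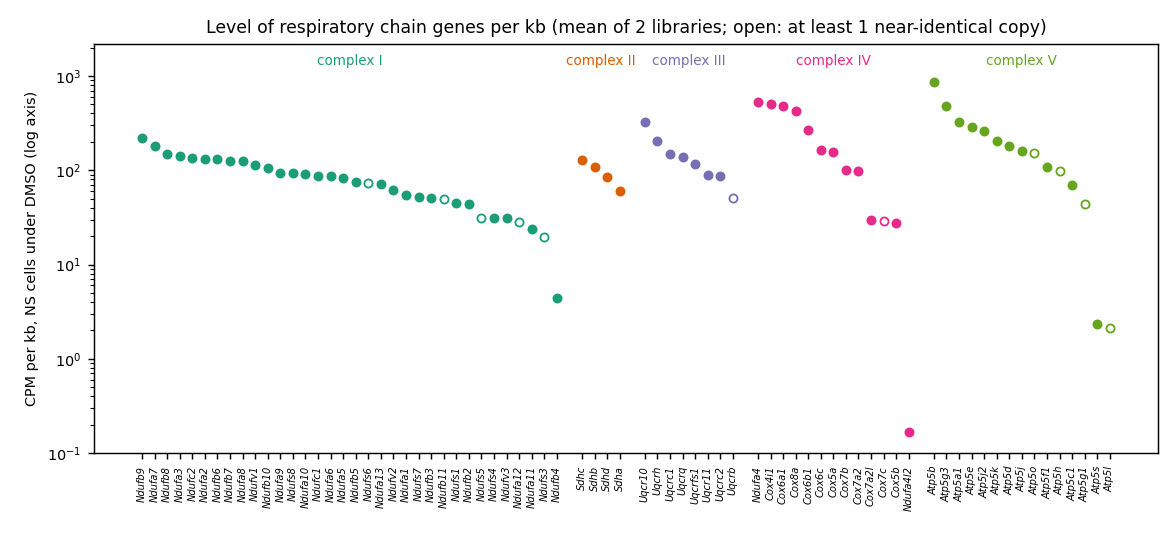
Level of the tested genes in NS cells under DMSO, as the mean CPM per kb of 2 libraries on a log axis, by complex. Open circles are genes with at least 1 near-identical copy elsewhere in the genome. Atp5b stands highest at 869 CPM per kb, and 3 genes (Ndufa4l2, Atp5l and Atp5s) lie under 3 CPM per kb.

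Of the complex IV subunits that exist in isoforms, the widely expressed ones were present and the tissue-restricted ones nearly absent. Cox4i1, Cox6a1, Cox6b1, Cox7a2, Cox7b and Cox8a had group means between 84.8 and 500.5 CPM per kb. Their paralogs Cox4i2, known from lung, Cox6a2, Cox7a1 and Cox8b, known from heart and skeletal muscle, and Cox6b2, Cox7b2 and Cox8c, known from testis, had at most 0.142 CPM per kb in any group mean, and Cox7a1 and Cox8c had no counts in any library. A total of 0 counts allows up to 3 counts in a library, a limit that covers counting error only. The 3 genes of the ATP synthase c ring encode the same mature protein, and Atp5g3 had the highest counted level, at 485 ± 5.26 CPM per kb in NS DMSO libraries against 43.4 ± 2.79 for Atp5g1. Atp5g2 had group means of 0.443 to 0.861 CPM per kb, under the filter. Near-identical copies exist elsewhere for Atp5g1 (1) and Atp5g2 (2) but not for Atp5g3, so the order of the 3 genes is uncertain.

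The knockdown comparisons set the Tgfbr1 knockdown cells against the NS cells, under Dox-4OHT and under DMSO. Summed over the members, the respiratory chain genes took 0.847% and 0.841% of all counts in the knockdown Dox-4OHT libraries against 0.942% and 0.963% in the NS Dox-4OHT libraries. Under DMSO the shares were 0.887% and 0.867% in knockdown libraries against 0.973% and 0.969% in NS libraries. Under each treatment both knockdown libraries were thus below both NS libraries. The sum of complex III was 858 and 876 CPM in the knockdown Dox-4OHT libraries against 1006 and 1023 CPM in the NS Dox-4OHT libraries, and 888 and 888 CPM in the knockdown DMSO libraries against 1098 and 1068 CPM in the NS DMSO libraries. For complex II the distance was small, with 528 and 522 CPM in the knockdown Dox-4OHT libraries against 556 and 562 CPM in the NS Dox-4OHT libraries, and with 535 and 525 CPM in the knockdown DMSO libraries against 537 and 545 CPM in the NS DMSO libraries.

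**Figure D2:**
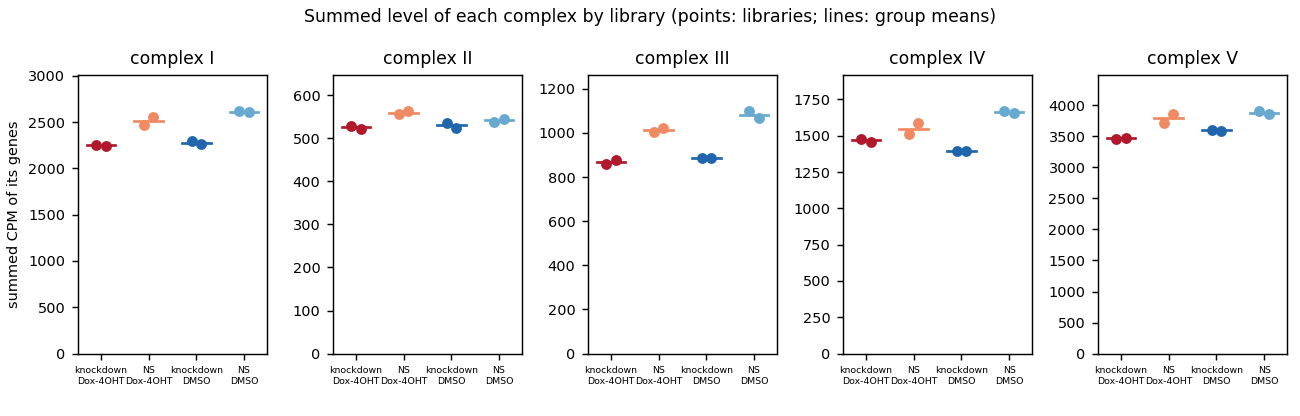
Summed CPM of the members of each complex in each library, with 1 point per library and a line at the mean of the 2 libraries of a group, each axis starting at 0. In all 5 complexes the knockdown libraries lie below the NS libraries of the same treatment, most closely for complex II.

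Gene by gene, 44 of the 75 tested members were lower and 4 higher in knockdown than in NS cells under Dox-4OHT, where 29.7% of all genes tested were lower and 30.5% higher, 60.2% in all. Under DMSO 46 were lower and 5 higher, against 31% and 30.9% of all genes, 61.9% in all. The share of members lower was 58.7% under Dox-4OHT and 61.3% under DMSO. The median log2 change of the members was -0.17 under Dox-4OHT and -0.24 under DMSO, against -0.01 and 0.00 over all 12538 genes tested. Calls are at an adjusted p of 0.05 over all genes. Unless DESeq2 is named, adjusted p-values come from the quasi-likelihood test of edgeR after Benjamini-Hochberg adjustment. The changes were mostly modest: those lower lost 7.67% to 53.3% under Dox-4OHT and 9.33% to 51.3% under DMSO, and in each comparison only Atp5g1 changed at least 2-fold.

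The comparisons under Dox-4OHT and under DMSO use separate libraries of the same NS and knockdown cells. Under both treatments 35 members were lower, which is 35 of the 44 and 35 of the 46, and 18.2% of all genes were lower in both. They comprise 18 genes of complex I, 1 of complex II, 6 of complex III, 5 of complex IV and 5 of complex V. Sdha alone was higher in both, where 19.3% of all genes were. By DESeq2, run without the filter on low counts, 22 members were lower under both treatments, where 9.3% of all genes were. Those lower under Dox-4OHT numbered 27 by DESeq2, and the share of all genes for this count is not given here. Fewer members were lower under both treatments without NS Dox-4OHT replicate 2. With each library left out in turn, the median log2 change of the members was -0.20 to -0.12 under Dox-4OHT and -0.25 to -0.22 under DMSO. With every alternative setting applied in turn, 38 of the 46 calls of lower under DMSO and 26 of the 44 under Dox-4OHT passed throughout, and 20 members did so in both. For the calls that passed throughout, the share of all genes was not computed, so these counts are not read as particular to the members. In bulk RNA a lower level of the members cannot be told apart from a different share of some cells or from less of these RNAs per cell.

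Quantities other than the shRNA also differed between some of these groups. Under Dox-4OHT the epithelial and pigment cell marker sums of knockdown and NS libraries overlapped. The immune and endothelial sums were higher in knockdown libraries under Dox-4OHT and lower under DMSO. The summed level of the 6 epithelial markers was 10540 to 11070 CPM in knockdown Dox-4OHT libraries against 10780 to 11090 CPM in NS Dox-4OHT libraries, and 14540 to 15300 CPM in knockdown DMSO libraries against 22970 to 23340 CPM in NS DMSO libraries. Single epithelial markers differed in direction: 4 were higher and 2 lower in knockdown cells under DMSO, and 3 higher and 1 lower under Dox-4OHT. Of all genes tested, 30.9% were higher and 31% lower under DMSO, and 30.5% and 29.7% under Dox-4OHT. The immune marker sum was 14.9 to 15.5 CPM in knockdown Dox-4OHT against 7.36 to 7.80 CPM in NS Dox-4OHT libraries, and 4.51 to 4.88 CPM in knockdown DMSO against 7.68 to 8.95 CPM in NS DMSO libraries. The endothelial sum was 31.4 to 32.7 CPM in knockdown Dox-4OHT against 22.5 to 23.8 CPM in NS Dox-4OHT libraries, and 26.1 to 27.8 CPM in knockdown DMSO against 36.4 to 37.1 CPM in NS DMSO libraries. The fibroblast sum was 1.14 to 1.92 CPM in knockdown Dox-4OHT against 3.47 to 4.39 CPM in NS Dox-4OHT libraries, and 2.67 to 2.95 CPM in knockdown DMSO against 3.77 to 3.92 CPM in NS DMSO libraries. The pigment cell sum was 4.24 to 4.65 CPM in knockdown Dox-4OHT against 3.78 to 4.39 CPM in NS Dox-4OHT libraries, and 3.373 to 4.201 CPM in knockdown DMSO against 6.002 to 6.217 CPM in NS DMSO libraries. Of the 4 immune markers only Cd68 passed the filter on low counts, of the 3 endothelial ones only Pecam1 and of the 3 pigment cell ones only Pmel. Of the 6 fibroblast markers, 2 (Pdgfra and Dcn) passed it. The part of these quantities in the lower levels of respiratory chain genes was not tested. With Rn45s left out of the libraries, 36 members were lower under both treatments, as were 18.8% of all genes.

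**Figure D3:**
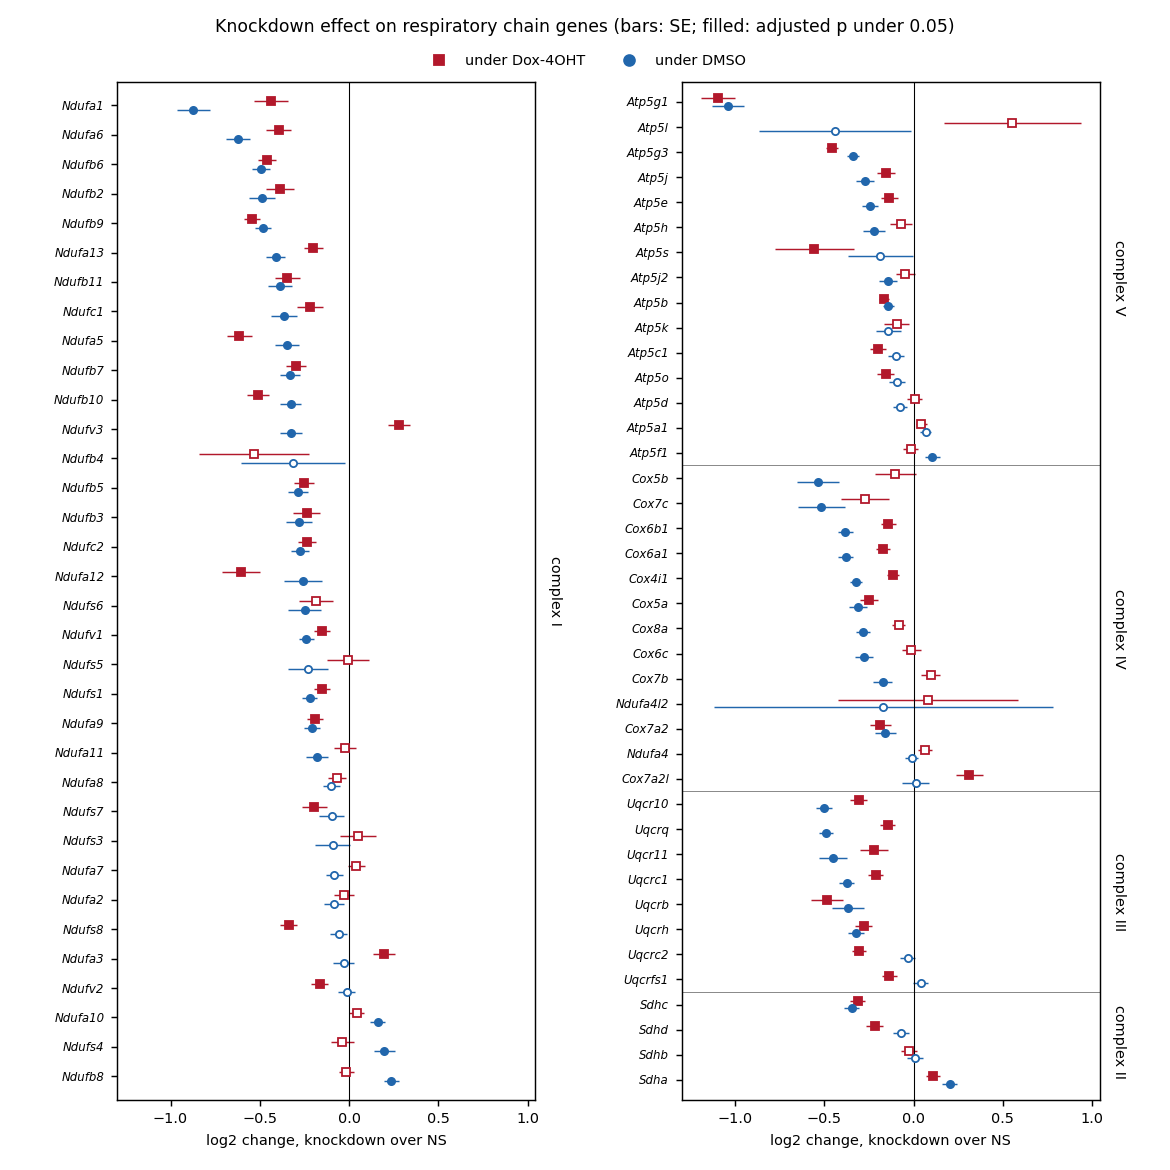
Log2 change, knockdown over NS, of tested members by complex, with squares for Dox-4OHT and circles for DMSO, bars of 1 SE, and filled symbols where the adjusted p is under 0.05. Most symbols lie left of 0, Atp5g1 lies beyond -1 under both treatments, and Ndufv3 is right of 0 under Dox-4OHT and left of it under DMSO.

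In complex I, 21 of 35 genes were lower and 2 higher in knockdown cells under Dox-4OHT, and 22 were lower and 3 higher under DMSO. Of the 7 core subunits, which among them hold the flavin and the iron-sulfur clusters and are conserved from bacteria, 5 were lower under Dox-4OHT and 3 under DMSO. Of the 28 accessory subunits 16 were lower under Dox-4OHT and 19 under DMSO. Ndufb9, an accessory subunit of the membrane arm with a LYR motif, was at 93.98 and 95.8 CPM in the knockdown Dox-4OHT libraries and 141 and 136 CPM in the NS Dox-4OHT libraries, and at 103 and 98.03 CPM in the knockdown DMSO libraries and 142 and 138 CPM in the NS DMSO libraries. All 4 knockdown libraries were below all 4 NS libraries, and the log2 change was -0.54 ± 0.04 (adjusted p = 3.63e-11) under Dox-4OHT and -0.48 ± 0.04 (adjusted p = 2.8e-10) under DMSO. Ndufa6, the other LYR-motif subunit of the complex, was at 32.5 and 32.2 CPM in the knockdown Dox-4OHT libraries and 40.95 and 44.02 CPM in the NS Dox-4OHT libraries, and at 32.2 and 30.3 CPM in the knockdown DMSO libraries and 47.6 and 48.7 CPM in the NS DMSO libraries. Its log2 change was -0.39 ± 0.07 (adjusted p = 1.64e-05) under Dox-4OHT and -0.62 ± 0.07 (adjusted p = 5.94e-09) under DMSO, again with no overlap.

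Ndufa1, a small membrane-arm subunit needed for assembly of the complex, was at 16.6 and 17.4 CPM in the knockdown Dox-4OHT libraries and 22.5 and 23.2 CPM in the NS Dox-4OHT libraries, and at 13.9 and 15.2 CPM in the knockdown DMSO libraries and 28.2 and 25.1 CPM in the NS DMSO libraries. The knockdown libraries were lower in each case, and the log2 change was -0.43 ± 0.10 (adjusted p = 0.000288) under Dox-4OHT and -0.87 ± 0.09 (adjusted p = 6.93e-09) under DMSO. Ndufb6, another membrane-arm subunit, changed by -0.46 ± 0.05 under Dox-4OHT and -0.49 ± 0.05 under DMSO. Ndufa5, a subunit of the matrix arm, was at 31.8 and 28.96 CPM in the knockdown Dox-4OHT libraries and 44.4 and 48.7 CPM in the NS Dox-4OHT libraries, and at 34.6 and 36.2 CPM in the knockdown DMSO libraries and 46.5 and 43.7 CPM in the NS DMSO libraries. It was lower in knockdown cells under Dox-4OHT, at -0.61 ± 0.07 (adjusted p = 3.3e-08), and under DMSO, at -0.35 ± 0.07 (adjusted p = 9.82e-05). Ndufa12, a matrix-arm subunit, changed by -0.60 ± 0.11 (adjusted p = 1.99e-05) under Dox-4OHT and by -0.26 ± 0.11 (adjusted p = 0.0403) under DMSO. Its call under DMSO ended by DESeq2 (adjusted p = 0.242) and without NS DMSO replicate 2 (0.333) or knockdown DMSO replicate 2 (0.285), and it has a near-identical copy.

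The median log2 change was -0.15 in core and -0.23 in accessory subunits under Dox-4OHT, and -0.10 and -0.28 under DMSO, and the distance between both classes was not tested. Ndufs1, the largest of them, was at 109 and 105 CPM in the knockdown Dox-4OHT libraries and 118 and 120.1 CPM in the NS Dox-4OHT libraries, and at 113 and 108 CPM in the knockdown DMSO libraries and 131 and 128 CPM in the NS DMSO libraries. Its log2 change was -0.15 ± 0.04 (adjusted p = 0.00455) under Dox-4OHT, a call that ended by DESeq2 (adjusted p = 0.0856) and without knockdown Dox-4OHT replicate 2 (0.0582), and -0.22 ± 0.04 (adjusted p = 8.63e-05) under DMSO. Ndufv1, which binds NADH and the flavin, changed by -0.15 ± 0.04 under Dox-4OHT, where DESeq2 gave an adjusted p of 0.059, and by -0.24 ± 0.04 under DMSO. Ndufs8, an iron-sulfur subunit next to the ubiquinone site, was at 80.8 and 83.2 CPM in the knockdown against 104 and 103 CPM in the NS Dox-4OHT libraries, and at 93.3 and 88.5 CPM in the knockdown against 92.05 and 97.3 CPM in the NS DMSO libraries. It was lower under Dox-4OHT, at -0.34 ± 0.05 (adjusted p = 1.07e-06), while under DMSO its libraries overlapped and the change was -0.06 ± 0.05 (adjusted p = 0.299).

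Complex I also held exceptions. Ndufb8, a membrane-arm subunit whose protein is much used as a marker of complex I assembly, was at 119 and 120.0 CPM in the knockdown DMSO libraries against 102 and 101 CPM in the NS DMSO libraries, and was higher by 0.24 ± 0.04 (adjusted p = 2.8e-05). Under Dox-4OHT its libraries were at 108 and 108 CPM in knockdown against 109 and 109 CPM in NS cells, with a change of -0.02 ± 0.04 (adjusted p = 0.772). Ndufa10 and Ndufs4 were also higher under DMSO, by 0.16 ± 0.04 and 0.20 ± 0.06, Ndufs4 with an adjusted p of 0.0898 by DESeq2. Under Dox-4OHT the genes higher in knockdown cells were Ndufv3, at 0.28 ± 0.06, and Ndufa3, at 0.20 ± 0.06, the call of Ndufa3 ending by DESeq2 (adjusted p = 0.0778). Ndufa10, Ndufs4 and Ndufa3 were singled out after their values were seen.

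In complex II, which is wholly encoded in the nucleus and is also an enzyme of the citric acid cycle, a catalytic subunit was higher and an anchoring subunit lower in knockdown cells. Sdhc, a membrane anchor that binds haem, was at 117 and 118 CPM in the knockdown Dox-4OHT libraries and 143 and 148 CPM in the NS Dox-4OHT libraries, and at 119 and 115 CPM in the knockdown DMSO libraries and 147 and 151 CPM in the NS DMSO libraries. It was lower in knockdown cells, at -0.31 ± 0.04 (adjusted p = 3.78e-07) under Dox-4OHT and -0.35 ± 0.04 (adjusted p = 5.51e-08) under DMSO. Sdhd, the other anchor, had a log2 difference of -0.22 ± 0.05 (adjusted p = 0.000172) under Dox-4OHT and of -0.07 ± 0.05 (adjusted p = 0.19) under DMSO. Sdha, the flavoprotein that oxidises succinate, was at 194 and 184 CPM in the knockdown Dox-4OHT libraries and 174 and 176 CPM in the NS Dox-4OHT libraries, and at 195 and 195 CPM in the knockdown DMSO libraries and 165 and 174 CPM in the NS DMSO libraries. Both knockdown libraries were above both NS libraries under each treatment, with changes of 0.11 ± 0.04 (adjusted p = 0.0252) under Dox-4OHT and 0.20 ± 0.04 (adjusted p = 0.00011) under DMSO. The Dox-4OHT call of Sdha ended by DESeq2 (adjusted p = 0.107), with library totals alone (0.175) or upper quartile scaling (0.102), and without NS Dox-4OHT replicate 1 (0.0837) or knockdown Dox-4OHT replicate 1 (0.274). Sdhb, the iron-sulfur subunit, had a log2 difference of -0.03 ± 0.05 (adjusted p = 0.629) under Dox-4OHT and 0.01 ± 0.05 (adjusted p = 0.915) under DMSO.

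In complex III all 8 genes were lower in knockdown cells under Dox-4OHT and 6 of 8 under DMSO. Uqcr10, one of the smallest subunits, was at 98.4 and 97.3 CPM in the knockdown Dox-4OHT libraries and 118 and 124 CPM in the NS Dox-4OHT libraries, and at 103 and 96.8 CPM in the knockdown DMSO libraries and 144 and 139 CPM in the NS DMSO libraries. The groups did not overlap under either treatment, and the changes were -0.31 ± 0.05 (adjusted p = 2.14e-06) under Dox-4OHT and -0.50 ± 0.05 (adjusted p = 2.39e-10) under DMSO. Uqcrb, which has a part in ubiquinone binding, changed by -0.49 ± 0.09 under Dox-4OHT and -0.37 ± 0.09 under DMSO. Its DMSO call ended without NS DMSO replicate 1 (adjusted p = 0.0602), and it has near-identical copies. Uqcrq and Uqcr11, both small accessory subunits, fell by 0.49 and 0.45 on the log2 scale under DMSO and by 0.15 and 0.22 under Dox-4OHT. These 2 Dox-4OHT calls ended by DESeq2 (adjusted p = 0.0623 and 0.187) and without NS Dox-4OHT replicate 2 (0.117 and 0.198), that of Uqcr11 also without knockdown Dox-4OHT replicate 1 (0.30).

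Among the core subunits of complex III, Uqcrc1 was at 171 and 179 CPM in the knockdown Dox-4OHT libraries and 199.9 and 205 CPM in the NS Dox-4OHT libraries, and at 186 and 187 CPM in the knockdown DMSO libraries and 252 and 233 CPM in the NS DMSO libraries. It was lower under both treatments, at -0.21 ± 0.04 (adjusted p = 7.68e-05) under Dox-4OHT and, under DMSO, -0.38 ± 0.04 (adjusted p = 8.15e-09). Its partner Uqcrc2 was lower under Dox-4OHT, at -0.31 ± 0.04 (adjusted p = 3.55e-07), with a difference of -0.03 ± 0.04 (adjusted p = 0.489) under DMSO. Uqcrfs1, the Rieske iron-sulfur protein, had the same arrangement, with -0.14 ± 0.04 (adjusted p = 0.00639) under Dox-4OHT and 0.04 ± 0.04 (adjusted p = 0.41) under DMSO. The Dox-4OHT call of Uqcrfs1 ended by DESeq2 (adjusted p = 0.097) and without knockdown Dox-4OHT replicate 1 (0.0916).

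In complex IV 5 of 13 tested genes were lower and 1 higher in knockdown cells under Dox-4OHT, and 10 were lower and none higher under DMSO. Cox5a, a nuclear subunit on the matrix side, was at 90.7 and 80.8 CPM in the knockdown Dox-4OHT libraries and 103 and 102 CPM in the NS Dox-4OHT libraries, and at 85.1 and 86.96 CPM in the knockdown DMSO libraries and 105 and 108 CPM in the NS DMSO libraries. Its change was -0.25 ± 0.05 (adjusted p = 0.00014) under Dox-4OHT and -0.31 ± 0.05 (adjusted p = 6.69e-06) under DMSO. Cox6b1, which faces the intermembrane space, was at 110.1 and 107 CPM in the knockdown Dox-4OHT libraries and 119 and 121 CPM in the NS Dox-4OHT libraries, and at 100.4 and 102 CPM in the knockdown DMSO libraries and 134 and 130.5 CPM in the NS DMSO libraries. It changed by -0.14 ± 0.04 (adjusted p = 0.0064) under Dox-4OHT and by -0.38 ± 0.04 (adjusted p = 1.43e-08) under DMSO, the 2 groups being apart in both. Cox4i1 changed by -0.12 ± 0.04 and Cox6a1 by -0.17 ± 0.04 under Dox-4OHT, and by -0.32 ± 0.04 and -0.38 ± 0.04 under DMSO. Without NS Dox-4OHT replicate 2 none of these 3 passed under Dox-4OHT (adjusted p = 0.0507 for Cox6b1, 0.176 for Cox4i1 and 0.0508 for Cox6a1), and Cox6b1 and Cox4i1 did not pass by DESeq2 (0.111 and 0.0805) or without knockdown Dox-4OHT replicate 2 (0.0609, Cox6b1) or replicate 1 (0.089, Cox4i1).

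The largest falls of complex IV under DMSO were those of 2 less abundant genes, Cox5b, a zinc-binding subunit, at -0.53 ± 0.12 (adjusted p = 0.000302), and Cox7c, at -0.52 ± 0.13 (adjusted p = 0.00124). Under Dox-4OHT their changes were -0.10 ± 0.11 (adjusted p = 0.45) and -0.27 ± 0.13 (adjusted p = 0.0794). Cox7a2, the widely expressed isoform of its subunit, changed by -0.19 ± 0.06 (adjusted p = 0.00695) under Dox-4OHT and -0.16 ± 0.06 (adjusted p = 0.0174) under DMSO, calls that both ended by DESeq2 (adjusted p = 0.105 and 0.153) and in several of the fits that left out a library. Cox7a2l, the supercomplex factor, went the other way under Dox-4OHT, at 37.3 and 34.4 CPM in knockdown against 29.3 and 28.8 CPM in NS libraries and a change of 0.31 ± 0.08 (adjusted p = 0.000897). Under DMSO it was at 32.96 and 31.7 CPM in knockdown against 30.4 and 33.9 CPM in NS libraries, which overlap, with a change of 0.01 ± 0.07 (adjusted p = 0.902). Ndufa4, with differences of 0.06 ± 0.04 under Dox-4OHT and -0.01 ± 0.04 under DMSO, passed neither test.

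In complex V 8 of 15 tested genes were lower in knockdown cells under Dox-4OHT, 1 of them the non-subunit Atp5s, and 7 were lower and 1 higher under DMSO. Atp5g1, of the proton-carrying c ring, was at 15.7 and 13.6 CPM in the knockdown Dox-4OHT libraries and 29.6 and 33.2 CPM in the NS Dox-4OHT libraries, and at 15.8 and 17.7 CPM in the knockdown DMSO libraries and 33.1 and 36.2 CPM in the NS DMSO libraries. The knockdown libraries held roughly the same distance below NS libraries under both treatments, with changes of -1.10 ± 0.10 (adjusted p = 1.39e-10) and -1.04 ± 0.09 (adjusted p = 1.3e-10). Atp5g3, the c-ring gene with the highest counted level, was at 249.6 and 251 CPM in the knockdown Dox-4OHT libraries and 342 and 346 CPM in the NS Dox-4OHT libraries, and at 276 and 273 CPM in the knockdown DMSO libraries and 345 and 350.4 CPM in the NS DMSO libraries. It was lower, at -0.46 ± 0.03 (adjusted p = 4.71e-12) under Dox-4OHT and -0.34 ± 0.03 (adjusted p = 1.24e-09) under DMSO. Reads of Atp5g1 may be shared with the near-identical copy Gm10039, so the value of Atp5g1 is uncertain, whereas Atp5g3 had no such copy.

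Of the 5 subunits of the catalytic head of ATP synthase 3 were lower under Dox-4OHT and 2 under DMSO. Atp5b was at 1417 and 1424 CPM in the knockdown Dox-4OHT libraries and 1558 and 1627 CPM in the NS Dox-4OHT libraries, and at 1475 and 1466 CPM in the knockdown DMSO libraries and 1632 and 1612 CPM in the NS DMSO libraries. It was lower in knockdown cells, at -0.17 ± 0.03 (adjusted p = 2.14e-05) under Dox-4OHT and, under DMSO, -0.14 ± 0.03 (adjusted p = 0.00015). Atp5a1, the alpha subunit, had a log2 difference of 0.04 ± 0.03 (adjusted p = 0.223) under Dox-4OHT and 0.07 ± 0.03 (adjusted p = 0.0535) under DMSO. Atp5c1, the rotating gamma shaft, had a log2 difference of -0.20 ± 0.05 (adjusted p = 0.000393) under Dox-4OHT and of -0.10 ± 0.04 (adjusted p = 0.0546) under DMSO. Atp5j, a subunit of the peripheral stalk, changed by -0.15 ± 0.05 (adjusted p = 0.0108) under Dox-4OHT, a call that ended by DESeq2 (adjusted p = 0.116) and without NS Dox-4OHT replicate 2 (0.27) or knockdown Dox-4OHT replicate 2 (0.0564), and by -0.27 ± 0.05 (adjusted p = 2.75e-05) under DMSO. Its exons overlap those of Gabpa on the opposite strand, and since the counting is not stated to use strand, the reads of the 2 genes cannot be told apart there. The gene higher under DMSO was Atp5f1, another stalk subunit, at 0.11 ± 0.04 (adjusted p = 0.0274), singled out after its value was seen, and its call ended by DESeq2 (adjusted p = 0.144) and without NS DMSO replicate 2 (0.279) or knockdown DMSO replicate 2 (0.185).

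**Figure D4:**
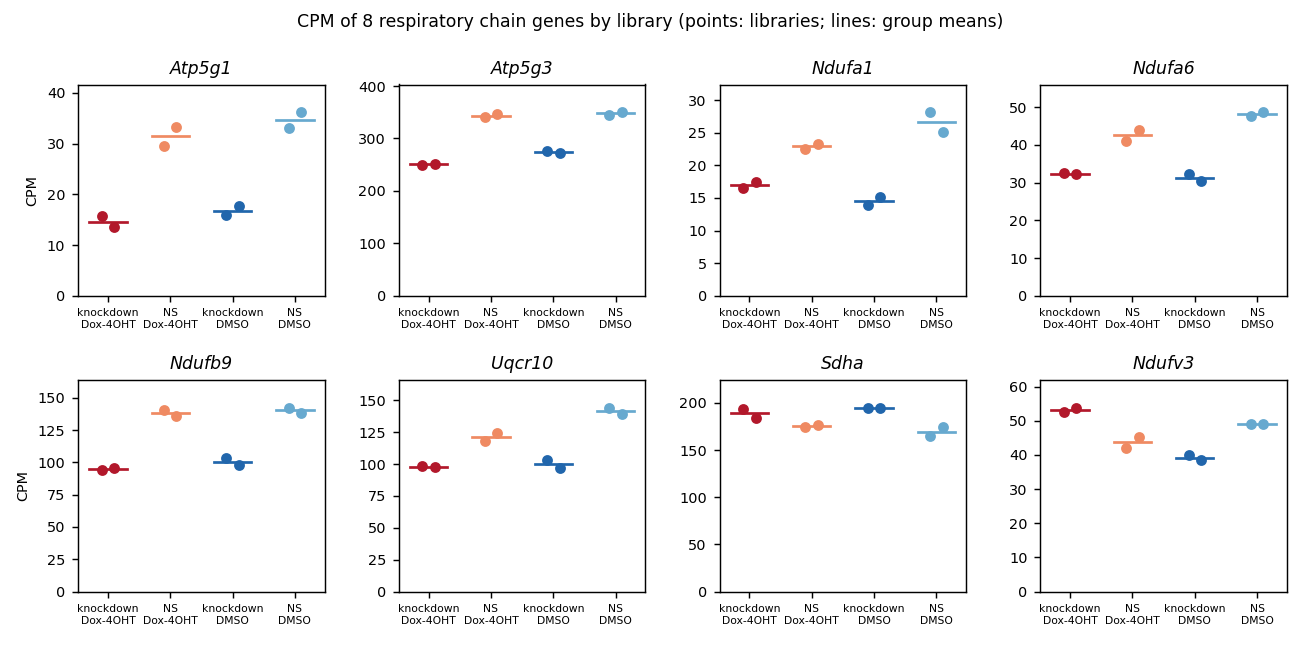
CPM of 8 members in each library, with 1 point per library, a line at the mean of the 2 libraries of a group and axes starting at 0. Atp5g1, Atp5g3, Ndufa1, Ndufa6, Ndufb9 and Uqcr10 are lower in the knockdown libraries under both treatments, Sdha is higher, and Ndufv3 is highest in the knockdown Dox-4OHT libraries.

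Ndufb2, Ndufb3, Ndufb5, Ndufb10, Ndufb11, Ndufa9, Ndufa13, Ndufc1 and Ndufc2 of complex I and Uqcrh, the hinge protein of complex III, were lower under both treatments, with log2 changes from -0.51 (Ndufb10) to -0.19 (Ndufa9) under Dox-4OHT and from -0.49 (Ndufb2) to -0.21 (Ndufa9) under DMSO. Under Dox-4OHT the calls of Ndufb3, Ndufc1 and Ndufa13 ended by DESeq2 (adjusted p = 0.123, 0.153 and 0.0529) and without single libraries: Ndufb3 without NS replicate 2 (0.178) or knockdown replicate 1 (0.0965), Ndufc1 without knockdown replicate 2 (0.0512) and Ndufa13 without NS replicate 2 (0.0511). The core subunits Ndufs7 and Ndufv2 and the stalk subunit Atp5o were lower under Dox-4OHT, at -0.19 ± 0.07, -0.17 ± 0.05 and -0.16 ± 0.05, calls that all ended by DESeq2. Ndufa11, Ndufs6, Atp5h and Atp5j2 were lower under DMSO, at -0.18 ± 0.06, -0.25 ± 0.09, -0.22 ± 0.06 and -0.14 ± 0.05, and each of these calls ended under at least 1 alternative. Ndufa2, Ndufa7, Ndufa8, Ndufb4, Ndufs3, Ndufs5, Atp5d, Atp5k and Atp5l passed under neither treatment.

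Copies of these genes elsewhere in the genome can take or give reads. Transcripts of 12 of the 83 members (Atp5g1, Atp5g2, Atp5h, Atp5l, Atp5o, Cox7c, Ndufa12, Ndufb11, Ndufs3, Ndufs5, Ndufs6 and Uqcrb) matched at least 1 other annotated transcript at 95% identity or more over at least 50% of their length, and their values are uncertain. They were lower in level, with a median of 43.4 CPM per kb in NS DMSO libraries against 111 for the tested members without a copy. Of the 64 tested members without a copy by this rule, 39 (60.9%) were lower in knockdown cells under Dox-4OHT and 39 under DMSO. Of the 11 tested members with a copy, 45.5% and 63.6% were lower, against 29.7% and 31% of all genes. Members without a copy by this rule can still hold shorter matches. All matches together covered, for example, 64.6% of Atp5f1, 43.8% of Uqcr10, 42% of Cox5a and 40.2% of Ndufb4. Exons of 18 members overlapped those of another gene by at least 100 bases, among them Ndufb5 with Mrpl47, Ndufb6 with Smim27, Cox4i1 with Emc8, Uqcrc2 with Pdzd9 and, on the same strand, Ndufb9 with Gm49356. Gene length moved with the DMSO comparison, and its part there was tested only by the correction given last. Of the 37 tested members shorter than the median of 745 bases 27 were lower, and of the 38 others 19 were lower. Under Dox-4OHT the counts were 20 of 37 and 24 of 38. Across the 75 genes, which are not independent replicates, Pearson's r between the knockdown log2 change and log2 length was 0.14 under Dox-4OHT and 0.37 under DMSO. With a correction for trends on length in each library, 36 members were lower under both treatments, as were 18.2% of all genes.

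Promoters of the members were searched for motifs of known activators of respiratory chain genes. RefSeq promoter windows (build GRCm38.p6, 250 bases before to 50 bases after the transcript start, 300 in all) were found for 66 of the 83 members and for 27025 genes in all. Each motif was searched on both strands. The NRF1 motif, whose 10 letters stand in capitals in the Cox6a1 promoter shown with the other sequences, was in 7.58% of the members' windows and 1.07% of all windows, the ETS motif CCGGAAG, which GABPA binds, in 24.2% and 9.93%, and the YY1 motif AAGATGGC in 13.6% and 3.19%. The E-box CACGTG, which MYC binds, was in 7.58% of the members' windows and 8.09% of all. Among the 29 members lower under both treatments and the 32 other tested members with a window, the ETS motif was in 27.6% and 25.0%, NRF1 in 6.90% and 6.25% and YY1 in 10.3% and 18.8%.

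The windows below show where such motifs stand in members lower under both treatments. They are the 180 bases before the transcript start, 5′ to 3′ on the gene's strand, with the ETS motif (CCGGAAG or its reverse complement CTTCCGG) and the NRF1 motif in capitals. For complexes I, III, IV and V the gene is the one with the largest DMSO fall among those with a motif in these bases, and Cox6a1 is added as the one with 2 different motifs. Of the 29 genes, 6 had a motif in these bases. The windows lie at chr8:83566578-83566757 on the + strand for Ndufb7, chr10:80406822-80407001 on the - strand for Uqcr11, chr7:30626115-30626294 on the - strand for Cox6b1, chr2:174464102-174464281 on the - strand for Atp5e and chr5:115348959-115349138 on the - strand for Cox6a1.
Ndufb7: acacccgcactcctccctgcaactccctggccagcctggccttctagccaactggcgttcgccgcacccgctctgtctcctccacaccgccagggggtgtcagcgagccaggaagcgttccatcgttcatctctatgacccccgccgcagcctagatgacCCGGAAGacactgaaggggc
Uqcr11: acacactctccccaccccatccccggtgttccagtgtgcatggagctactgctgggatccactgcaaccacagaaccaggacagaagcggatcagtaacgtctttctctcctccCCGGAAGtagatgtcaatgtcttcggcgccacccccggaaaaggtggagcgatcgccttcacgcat
Cox6b1: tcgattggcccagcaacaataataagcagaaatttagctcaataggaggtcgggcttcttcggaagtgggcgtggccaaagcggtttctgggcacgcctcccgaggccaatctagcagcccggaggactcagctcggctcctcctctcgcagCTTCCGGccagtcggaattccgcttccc
Atp5e: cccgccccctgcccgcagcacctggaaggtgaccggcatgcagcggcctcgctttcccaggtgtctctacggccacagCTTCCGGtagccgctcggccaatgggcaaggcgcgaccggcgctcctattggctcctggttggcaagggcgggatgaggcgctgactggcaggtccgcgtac
Cox6a1: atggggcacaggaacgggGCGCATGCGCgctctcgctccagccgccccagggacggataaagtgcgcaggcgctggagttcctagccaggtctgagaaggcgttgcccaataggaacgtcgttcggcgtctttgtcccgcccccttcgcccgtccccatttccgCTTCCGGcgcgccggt
The ETS motif starts 20 bases before the transcript start in Ndufb7, 66 in Uqcr11, 28 in Cox6b1, 102 in Atp5e and 16 in Cox6a1, and the NRF1 motif of Cox6a1 starts 162 bases before it. Ndufb7, an accessory subunit of the membrane arm of complex I, was lower, at -0.30 ± 0.06 (adjusted p = 5.78e-05) under Dox-4OHT and -0.33 ± 0.06 (adjusted p = 1.5e-05) under DMSO. Atp5e, the epsilon subunit of the ATP synthase head, changed by -0.14 ± 0.05 (adjusted p = 0.0128) under Dox-4OHT, which ended by DESeq2 (adjusted p = 0.159), with length correction (0.0909) and without NS Dox-4OHT replicate 2 (0.152) or knockdown Dox-4OHT replicate 1 (0.144), and by -0.24 ± 0.05 (adjusted p = 4.17e-05) under DMSO. A matched motif is a run of letters and not a shown site of binding.

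Fewer members passed the test for the Ras response. In knockdown cells 10 of the 75 members were lower and 6 higher with Dox-4OHT than with DMSO, against 16.6% and 19.5% of all genes tested. In NS cells 18 were lower and 5 higher, against 21.3% and 20.8% of all genes. The median log2 change of the members was -0.02 in knockdown and -0.07 in NS cells. In complex IV 4 of 13 genes were higher and none lower in knockdown cells, and 1 was higher and 5 lower in NS cells. Few of these calls passed under every alternative: of those lower, 0 of 10 in knockdown cells and 3 of 18 in NS cells, and of those higher, 2 of 6 and 0 of 5. By DESeq2 0 members were lower and 2 higher in knockdown cells, and 4 lower and 0 higher in NS cells. Of all genes, 2481 in knockdown cells and 3106 in NS cells passed by DESeq2 in either direction. At an unadjusted p under 0.05 edgeR had 24 members in knockdown cells and 33 in NS cells in either direction.

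The 2 members higher in knockdown cells throughout were Ndufv3 and Uqcrq. Ndufv3, an accessory subunit of the NADH-oxidising module of complex I, was at 52.4 and 53.8 CPM in the knockdown Dox-4OHT libraries and 41.9 and 45.4 CPM in the NS Dox-4OHT libraries, and at 39.9 and 38.5 CPM in the knockdown DMSO libraries and 49.2 and 48.99 CPM in the NS DMSO libraries. Its Ras response was 0.44 ± 0.06 (adjusted p = 3.3e-06) in knockdown cells. Uqcrq was at 174 and 173 CPM in the knockdown Dox-4OHT libraries and 185 and 198 CPM in the NS Dox-4OHT libraries, and at 149 and 149 CPM in the knockdown DMSO libraries and 204 and 215 CPM in the NS DMSO libraries, with a Ras response of 0.22 ± 0.04 (adjusted p = 0.000209) in knockdown cells. The 3 members lower in NS cells throughout included Uqcrc1 at -0.26 ± 0.04 (adjusted p = 9.03e-06) and Uqcr10 at -0.22 ± 0.04 (adjusted p = 0.000174).

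Other members named for their Ras response rest on fewer settings. In knockdown cells Cox5b changed by 0.37 ± 0.12, Ndufb10 by -0.23 ± 0.06, Ndufa5 by -0.22 ± 0.08, Atp5c1 by -0.18 ± 0.05, Uqcrc2 by -0.15 ± 0.04, Atp5g3 by -0.13 ± 0.03, Cox8a by 0.11 ± 0.04 and Cox4i1 by 0.11 ± 0.04 on the log2 scale. By DESeq2 their adjusted p lay between 0.0525 (Atp5g3) and 0.196 (Ndufa5). In NS cells Ndufa12 changed by 0.30 ± 0.10, Ndufa1 by -0.22 ± 0.09, Cox6c by -0.20 ± 0.05, Cox7b by -0.20 ± 0.05, Uqcr11 by -0.20 ± 0.08, Atp5j by -0.19 ± 0.05, Cox6b1 by -0.14 ± 0.04 and Sdhd by 0.12 ± 0.04. All of these but Cox6c and Cox7b ended when replicate 1 of either NS group was left out, with adjusted p up to 0.425 for Ndufa1. Cox7b ended without NS Dox-4OHT replicate 1 (adjusted p = 0.0953) or NS DMSO replicate 2 (0.119). By DESeq2 the adjusted p was 0.0537 for Cox7b and 0.0564 for Cox6c. Ndufa4l2, whose human counterpart is known as a hypoxia target, had the largest log2 changes, 2.14 ± 0.70 in knockdown and 1.89 ± 0.68 in NS cells, at levels of 0.586 and 0.781 CPM and 0.54 and 0.769 CPM with Dox-4OHT against 0.229 and 0.0703 CPM and 0.249 and 0.0711 CPM with DMSO. In knockdown cells this call ended without knockdown DMSO replicate 2 (adjusted p = 0.189) or knockdown Dox-4OHT replicate 2 (0.104), and in NS cells without replicate 2 of the DMSO group (0.194) or of the Dox-4OHT group (0.157) and by DESeq2 (0.214).

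The interaction asks whether the Ras response differed between knockdown and NS cells, or, what is the same, whether the knockdown effect differed between treatments. It passed for 22 members, 16 with a higher response in knockdown cells and 6 with a lower one, where 20.2% and 18% of all genes tested did. With library totals in place of TMM factors 9 were higher and 15 lower, so the balance of directions turned with the scaling. The median log2 interaction of all genes was -0.04 with library totals and 0.02 with TMM factors. In complex IV 8 of 13 genes were higher and none lower, and with library totals 5 were higher and none lower. They were Cox4i1, Cox5b, Cox6a1, Cox6b1, Cox6c, Cox7a2l, Cox7b and Cox8a, and of these 7, all but Cox7a2l, were lower with the knockdown under DMSO and 3 (Cox4i1, Cox6a1 and Cox6b1) under Dox-4OHT. In complex V none passed, and 2 of 15 had an unadjusted p under 0.05. Without NS Dox-4OHT replicate 1, complex IV had 4 higher genes and the members 8.

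**Figure D5:**
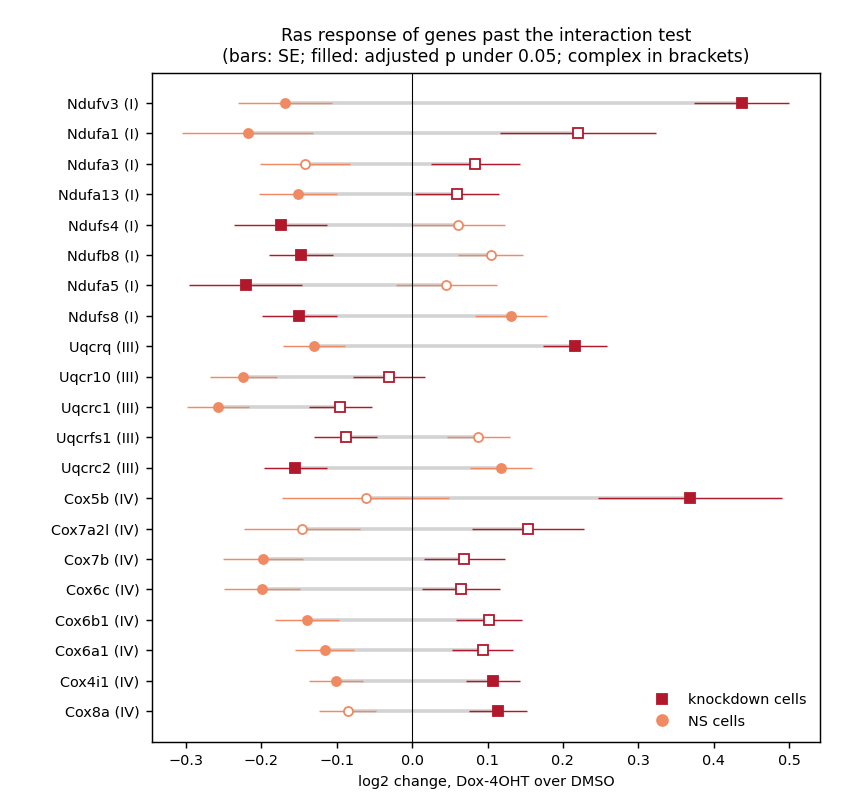
Ras response (log2 change, Dox-4OHT over DMSO) of members past the interaction test, with squares for knockdown cells and circles for NS cells, bars of 1 SE, filled symbols where that response has an adjusted p under 0.05, and a grey line joining both. In all 8 genes of complex IV the square lies right of the circle, while Ndufs4, Ndufb8, Ndufa5, Ndufs8, Uqcrfs1 and Uqcrc2 show the square left of the circle.

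Of these 22 calls, 5 of the 16 higher and 2 of the 6 lower passed under every alternative. Those higher included Ndufv3 at 0.61 ± 0.09 (adjusted p = 4.1e-06), Uqcrq at 0.35 ± 0.06 (adjusted p = 3.55e-05), Cox6b1 at 0.24 ± 0.06 (adjusted p = 0.00249) and Cox4i1 at 0.21 ± 0.05 (adjusted p = 0.00164). The 2 lower were Ndufs8 at -0.28 ± 0.07 (adjusted p = 0.00188) and Uqcrc2 at -0.27 ± 0.06 (adjusted p = 0.000476). Ndufv3 moved in opposite directions: its Ras response was 0.44 ± 0.06 in knockdown and -0.17 ± 0.06 in NS cells, although its call in NS cells ended by DESeq2 (adjusted p = 0.24) and in fits without single NS libraries. Ndufb8 (interaction -0.25 ± 0.06) had an adjusted p of 0.0504 by DESeq2. Cox8a (0.20 ± 0.05) ended with library totals (adjusted p = 0.0596) and without NS DMSO replicate 1 (0.0593), and Cox6a1 (0.21 ± 0.06) without NS Dox-4OHT replicate 1 (0.0548).

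Genes that serve the respiratory chain without being subunits were read from 6 lists. Their counts stand against 29.7% lower and 30.5% higher of all genes tested for the knockdown under Dox-4OHT and 31% and 30.9% under DMSO. Of 42 assembly factors, which build the complexes, 16 were lower and 6 higher in knockdown cells under Dox-4OHT, and 19 lower and 5 higher under DMSO. The shares lower were 38.1% and 45.2%, against 58.7% and 61.3% of the subunits. Acad9, an assembly factor of complex I, was at 46.3 and 44.7 CPM in the knockdown Dox-4OHT libraries and 74.03 and 72.2 CPM in the NS Dox-4OHT libraries, and at 54.9 and 56.6 CPM in the knockdown DMSO libraries and 87.3 and 85.97 CPM in the NS DMSO libraries, a change of -0.68 ± 0.06 (adjusted p = 3.53e-11) under Dox-4OHT and -0.64 ± 0.05 (adjusted p = 3.62e-11) under DMSO. Tmem70, an assembly factor of ATP synthase, changed by -0.59 ± 0.06 and -0.63 ± 0.06. The median of the list was -0.10 under Dox-4OHT and -0.17 under DMSO. For the Ras response, Coa3, which acts in complex IV assembly, was at 78.05 and 81.7 CPM in the Dox-4OHT and 65.1 and 62.7 CPM in the DMSO libraries of knockdown cells, with an interaction of 0.33 ± 0.08 (adjusted p = 0.00151). Ndufaf4, of complex I assembly, had an interaction of -0.46 ± 0.09 (adjusted p = 0.000194). In the Ras response in NS cells Sdhaf4, of complex II assembly, changed by -0.41 ± 0.10, with an adjusted p of 0.0531 by DESeq2.

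Of 20 further electron carriers, ubiquinone synthesis enzymes and subunits outside the symbol rule, 11 (55%) were lower and 4 higher under Dox-4OHT and 8 (40%) lower and 5 higher under DMSO. Coq7, a hydroxylase of ubiquinone synthesis, was at 4.27 and 4.06 CPM in the knockdown Dox-4OHT libraries and 16.6 and 16.5 CPM in the NS Dox-4OHT libraries, and at 5.27 and 4.15 CPM in the knockdown DMSO libraries and 18.8 and 20.1 CPM in the NS DMSO libraries, lower, at -1.97 ± 0.14 (adjusted p = 1.45e-12) under Dox-4OHT and, under DMSO, -2.05 ± 0.13 (adjusted p = 1.57e-13). Gpd2, the mitochondrial glycerol-3-phosphate dehydrogenase that feeds electrons to ubiquinone, was at 207 and 209 CPM in the knockdown Dox-4OHT libraries and 107 and 104 CPM in the NS Dox-4OHT libraries, and at 218 and 231 CPM in the knockdown DMSO libraries and 109.6 and 113 CPM in the NS DMSO libraries. It was higher in all 4 knockdown libraries, by 0.98 ± 0.04 (adjusted p = 5.16e-17) and 1.01 ± 0.04 (adjusted p = 1.21e-17) under Dox-4OHT and DMSO. Pdss1, which makes the ubiquinone side chain, and Higd2a, of complex IV assembly, passed the interaction at -0.94 ± 0.17 and 0.46 ± 0.08. Etfb, of the electron transfer flavoprotein, had a Ras response of -0.30 ± 0.06 in NS cells, Cyc1, the cytochrome c1 of complex III, one of 0.16 ± 0.04 there with an adjusted p of 0.0512 by DESeq2, and Coq2, of ubiquinone synthesis, one of -0.27 ± 0.06 in knockdown cells.

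The 18 enzymes of the citric acid cycle and its entry were divided evenly, with 5 lower and 7 higher under Dox-4OHT and 6 and 6 under DMSO, shares of 27.8% to 38.9%. Idh3a, of NAD-dependent isocitrate dehydrogenase, changed by -0.56 ± 0.04 and -0.46 ± 0.04, and Pdha1, of pyruvate dehydrogenase, by 0.36 ± 0.04 and 0.39 ± 0.04. Ogdh, of the 2-oxoglutarate dehydrogenase complex, had an interaction of 0.26 ± 0.05 and a Ras response of -0.28 ± 0.03 in NS cells. The Ras response of Pcx, which encodes pyruvate carboxylase, was 0.40 ± 0.08 in knockdown and 0.43 ± 0.08 in NS cells. That of Suclg2, of succinyl-CoA synthesis and cleavage, was -0.27 ± 0.07 in knockdown cells and ended by DESeq2 (adjusted p = 0.0764) and without knockdown DMSO replicate 2 (0.0903) or knockdown Dox-4OHT replicate 1 (0.0834). Among 77 tested mitochondrial ribosomal protein genes 26 were lower and 16 higher under Dox-4OHT, and 13 lower and 28 higher under DMSO, with 33.8% lower under Dox-4OHT and 36.4% higher under DMSO, near the shares of all genes, and 20.8% higher and 16.9% lower, below them. Their interaction passed in 22 genes with a lower and 2 with a higher response, against 18% and 20.2% of all genes, with -0.55 ± 0.08 for Mrpl9 and -0.55 ± 0.09 for Mrpl42, both lower. The knockdown change was -0.58 ± 0.06 for Mrps30 and 0.59 ± 0.07 for Mrps6 under Dox-4OHT, and 0.49 ± 0.06 for Mrpl9 and 0.39 ± 0.05 for Mrpl38 under DMSO. In NS cells the Ras response of Mrpl38 was 0.31 ± 0.05 and that of Mrpl36 -0.29 ± 0.06. Of 24 tested genes of mitochondrial protein import 8 (33.3%) were lower and 4 (16.7%) higher under Dox-4OHT and 5 (20.8%) lower and 7 (29.2%) higher under DMSO. Tomm6, a small subunit of the outer membrane translocase, changed by -1.12 ± 0.06 and -1.19 ± 0.06, and its reads cannot be told apart from those of the antisense entry Tomm6os, which changed by -1.11 ± 0.11 and -1.28 ± 0.11. Tomm20, a receptor of the same translocase, had a Ras response of -0.22 ± 0.04 in knockdown and -0.27 ± 0.04 in NS cells, Tomm22 one of -0.20 ± 0.05 in knockdown cells and Timm44 one of 0.23 ± 0.06 in NS cells. The interactions of Tomm40 (-0.21 ± 0.06) and Timm9 (-0.58 ± 0.16) ended by DESeq2 (adjusted p = 0.0657 and 0.0994).

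Of 21 tested regulators of mitochondrial biogenesis 7 (33.3%) were lower and 3 (14.3%) higher in knockdown cells under Dox-4OHT and 5 (23.8%) lower and 6 (28.6%) higher under DMSO, none far above the shares of all genes. Ppargc1a was at 7.26 and 5.47 CPM in the knockdown Dox-4OHT libraries and 24.9 and 20.1 CPM in the NS Dox-4OHT libraries, and at 3.17 and 3.65 CPM in the knockdown DMSO libraries and 34.02 and 31.5 CPM in the NS DMSO libraries. It was lower in all 4 knockdown libraries than in any NS library, with changes of -1.80 ± 0.13 (adjusted p = 1.87e-11) under Dox-4OHT and -3.25 ± 0.14 (adjusted p = 4.14e-16) under DMSO. Its relative Pprc1, which encodes a coactivator of the same family, was at 204 and 205 CPM in the knockdown Dox-4OHT libraries and 188 and 204 CPM in the NS Dox-4OHT libraries, and at 214 and 229.7 CPM in the knockdown DMSO libraries and 145 and 158 CPM in the NS DMSO libraries, higher by 0.55 ± 0.05 (adjusted p = 8.76e-10) under DMSO, with an interaction of -0.49 ± 0.07 (adjusted p = 4.19e-06). Gabpb1, the partner of GABPA, changed by -0.49 ± 0.07 (adjusted p = 4.14e-07) under Dox-4OHT. Myc passed the interaction at 0.44 ± 0.07 (adjusted p = 1.01e-05) and had a Ras response of -0.36 ± 0.05 in NS cells. In knockdown cells the Ras response was -0.26 ± 0.05 for Gabpa and -0.21 ± 0.04 for Lrpprc, which stabilises mitochondrial messenger RNA.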

How the data were processed

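Messenger RNA of 8 ASZ001 libraries was measured by RNA sequencing. One table was deposited, with an estimated count for each gene and library in multiples of 0.5 and not normalized, with gene lengths. TopHat and HOMER on mouse build mm9, and DESeq2, are named per the submitters' processing notes. The sources used here give no versions, strand setting, filters or treatment of reads matching several genes, so reads of near-identical or overlapping genes cannot be told apart.

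Whole counts had been assumed when the tests were designed, so the estimated counts were rounded for them. edgeR 4.0.16 (R 4.3.3) was run on all 8 libraries, with 1 mean per group, 4 residual degrees of freedom, TMM factors, filterByExpr (12538 genes kept, with 99.96% of counts) and the robust quasi-likelihood F test, two-sided, with Benjamini-Hochberg adjustment at 0.05. The biological coefficient of variation was 3.37%. SEs were derived from the test, as the absolute log2 change divided by the square root of its F value. Totals of 12724604.5 to 16233379 counts limit precision mainly for genes of a few CPM. Replicates had Pearson correlations of 0.9965 to 0.9973 across genes on a log2 scale with 0.5 added, and differed by more than sampling noise in each group (chi-square per degree of freedom 2.31 to 12.9). This chi-square includes Rn45s, so its size is not that of a typical gene. Rn45s held 0.916% and 2.76% of counts in the NS Dox-4OHT replicates (chi-square 12.9), and 0.387% and 1.36% in the knockdown DMSO replicates (8.02).

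The alternatives were DESeq2 1.42.0 as tool or for its size factors, upper quartile or no scaling factors, no filter, only the 4 libraries compared, no Rn45s, a length correction, the replicate number as a block, and each library left out. Copies were sought with BLAST 2.17.0 among GENCODE vM21 transcripts, alignments of 100 bases or more at 95% identity counting. Promoters are RefSeq windows of GRCm38.p6.

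The members and lists were chosen with earlier results of these data known. By rule, the text names fixed core subunits and isoforms, per comparison and complex up to 3 members past the test with the largest change, at least 5 CPM and no overlap of libraries, the 10 smallest p of the interaction, and the 2 smallest p of each other list. No column of the table lacked a sample (0 columns left out). Other members are named as said in the text or to show a group's range. Some genes that the rule names are not reported here, nor drawn in the figures.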

Additional observations from a re-analysis of the deposited data

Results flagged for a closer look

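The Ras response differed between knockdown and NS cells, by the interaction in edgeR's quasi-likelihood test, in 22 of 75 respiratory chain genes, against 38.2% of all genes tested. With TMM factors 16 were higher and 6 lower, and with library totals 9 and 15. Values are the log2 response in knockdown cells minus that in NS cells. In complex I they included Ndufv3 (0.61), Ndufa1 (0.44), Ndufa3 (0.23), Ndufa13 (0.21), Ndufs4 (-0.24), Ndufb8 (-0.25), Ndufa5 (-0.27) and Ndufs8 (-0.28). In complex III they were Uqcrq (0.35), Uqcr10 (0.19), Uqcrc1 (0.16), Uqcrfs1 (-0.18) and Uqcrc2 (-0.27). In complex IV they were Cox5b (0.43), Cox7a2l (0.30), Cox7b (0.27), Cox6c (0.26), Cox6b1 (0.24), Cox6a1 (0.21), Cox4i1 (0.21) and Cox8a (0.20). Of the 22, 7 passed under every alternative (among them Ndufv3, Uqcrq, Cox6b1, Cox4i1, Ndufs8 and Uqcrc2), and 13 of the other 15 were lost by DESeq2.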

How the results depend on the processing

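In the knockdown comparisons the median of the members stayed below 0 under every alternative run, and the largest move in a count of lower members was by DESeq2. By DESeq2, members lower numbered 27 of 44 under Dox-4OHT, and members higher 2 there and 3 under DMSO. The Ras response depended more on the processing. By DESeq2 it passed in 2481 genes in knockdown cells (members 2 higher, 0 lower) and 3106 genes in NS cells (0 higher, 4 lower), and the interaction in 2681 genes (members 7 higher, 2 lower). With library totals only, the members in NS cells were 8 higher and 8 lower, the median in knockdown cells was -0.056, and the interaction was 9 higher and 15 lower. With length correction 12 members were higher in knockdown cells (median 0.014) and 8 in NS cells. The cause of these shifts was not tested. Shares of all genes in each direction are not given for these settings, nor for the calls that passed under every alternative. These member counts are therefore not read as particular to the members.

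Leaving out each library in turn gave 3 to 6 members higher and 5 to 10 lower for the Ras response in knockdown cells, 1 to 5 and 4 to 19 in NS cells, and 8 to 15 and 3 to 9 for the interaction. It gave 30 to 45 members lower under Dox-4OHT and 41 to 46 under DMSO for the knockdown. A lone library left in a group is assumed there to vary like the other groups. Shares of all genes in each direction are not given for these fits either. Over single genes, members and others named, 182 results lost their call without a library, 28 gained one and 3350 kept their side of the threshold. Under the other alternatives the numbers were 114, 108 and 4132, and no result reversed.

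The replicate numbers are shared across groups, and same-numbered libraries deviated from their group means with correlations of -0.039 to 0.057 over all genes tested. The labels do not say if they were paired. Correlations over all genes cannot exclude a batch that touched only some of them. With the replicate block, 35 members were lower in knockdown cells under both treatments, as were 18.3% of all genes. For the Ras response, the block with length correction gave 12 members higher in knockdown cells (median 0.018) and 8 in NS cells.

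With 2 libraries a group, changes of members near 1 CPM (Ndufa4l2, Ndufb4 and Atp5l) carried SEs of 0.29 to 0.95 on the log2 scale for the knockdown, and none of these knockdown changes passed the test.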
